A study of Homo sapiens with 36 samples.

Results

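WI-38 cells, a line of normal human lung fibroblasts, were treated with 250 nM doxorubicin (DXR), a DNA-damaging drug, for 24 h, and the drug was then washed out. The 6 small RNA libraries described here were made at the end of the treatment (D0, 2 libraries) and 1 day (D1, 2 libraries) and 2 days (D2, 2 libraries) after washout, out of 36 libraries in 18 conditions in the whole series. All 1508 rows of the miRNA table were taken, of which 97 had no count in any library and 360 had enough counts to be tested, and these 360 held at least 99.8% of the counts of each of the 6 libraries. They entered the comparison of D0 with the 4 libraries of D1 and D2, which asks which miRNA levels of the drug-treated cells returned or appeared within 2 days of drug removal. The cells are called DDR-Sen because they go on to DNA damage response-dependent senescence over the following days. For reference, 2 libraries of untreated proliferating cells (Ctrl) and 6 libraries of cells treated for 24 h with 0.0095% sodium dodecyl sulphate (SDS), which damages the plasma membrane (PMD-Sen, D0 to D2), were used. No untreated culture was paired with D1 or D2, so time after washout cannot be told apart from time in culture, medium changes or cell density. The labels name the 2 libraries of a condition as biological replicates of this 1 cell line, and the p-values measure the spread between such cultures.

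miRNAs are RNAs of about 22 nt that guide Argonaute proteins to messenger RNAs, mainly through the seed, bases 2 to 8 from the 5′ end, and lower the output of the matched messages. Doxorubicin stops topoisomerase II on DNA, and the resulting breaks activate the DNA damage response. Mature miRNAs are often stable for days, so that a level can lag behind the transcription of its gene.

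No miRNA differed between D0 and the first 2 days after washout at an adjusted p below 0.05. The quasi-likelihood test of edgeR, run on the 360 miRNAs with enough counts, passed 0 (0%) after Benjamini-Hochberg adjustment, with a smallest adjusted p of 0.542. DESeq2 also called 0. At an unadjusted p below 0.05 there were 17 (4.72%), 9 higher and 8 lower after washout, and DESeq2 gave 10 and 12. Without D0 replicate 1 there were 26 and 20, and without D0 replicate 2 there were 8 and 6. Scaling by total counts in place of TMM gave 4 higher and 28 lower. The thresholds of the study, an unadjusted p below 0.05 and a change over 2-fold, were also applied to the edgeR values. They gave 2 higher and 4 lower, together 1.67% of those tested. The values below are therefore given as levels and intervals, and not as changes.

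The 12 miRNAs described first have the smallest unadjusted p in each direction, 6 higher and 6 lower after washout. Their mature sequences, from RefSeq (GRCh38.p14), identify the miRNAs named here and are shown with the seed in capitals, 5′ to 3′. The sequence of miR-7-5p is added for the comparison with PMD-Sen.
miR-30c-2-3p: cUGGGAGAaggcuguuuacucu
miR-125b-5p: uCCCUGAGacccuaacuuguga
miR-23b-5p: uGGGUUCCuggcaugcugauuu
miR-1260b: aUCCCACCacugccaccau
miR-30a-3p: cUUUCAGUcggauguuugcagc
miR-30a-5p: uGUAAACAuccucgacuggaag
miR-130b-3p: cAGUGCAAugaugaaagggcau
miR-665: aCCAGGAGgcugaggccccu
miR-671-5p: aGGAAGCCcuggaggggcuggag
miR-431-3p: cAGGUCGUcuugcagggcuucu
miR-337-5p: gAACGGCUucauacaggaguu
miR-17-5p: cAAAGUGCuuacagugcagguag
miR-7-5p: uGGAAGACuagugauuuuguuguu

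No 2 of these 13 share a seed. RefSeq sequences were matched for 325 of the 360 tested miRNAs, and among those the seed of miR-30a-5p is shared with miR-30c-5p and miR-30e-5p, that of miR-17-5p with miR-20a-5p, miR-93-5p and miR-106b-5p, that of miR-125b-5p with miR-125a-5p, that of miR-23b-5p with miR-23a-5p, that of miR-30a-3p with miR-30e-3p, and that of miR-130b-3p with miR-454-3p. Tested miRNAs without a matched sequence were not searched, so these seed groups can lack members. Several of the genes lie together. The MIR30C2 hairpin (chr6:71376960-71377031, minus strand, within an exon of the long non-coding RNA gene LINC00472) lies 26.52 kb from MIR30A (chr6:71403551-71403621, minus strand, outside the exons of the same gene), which gives both miR-30a arms. MIR337 (chr14:100874493-100874585), MIR665 (chr14:100875033-100875104) and MIR431 (chr14:100881007-100881120), all on the plus strand, lie in MIR493HG within the imprinted 14q32 miRNA cluster, MIR431 also opposite an exon of RTL1.

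The other hairpins are apart from one another. MIR17 (chr13:91350605-91350688, plus strand) is in MIR17HG, MIR23B (chr9:95085208-95085304, plus strand) lies outside the exons of AOPEP, MIR671 (chr7:151238421-151238538, plus strand) is within an exon of CHPF2, and MIR130B is at chr22:21653304-21653385 on the plus strand. MIR1260B (chr11:96341438-96341526, plus strand) is opposite an exon of MAML2. miR-125b-5p comes from MIR125B1 in MIR100HG (chr11:122099757-122099844, minus strand) and from MIR125B2 in MIR99AHG, where the mature sequence is at chr21:16590253-16590274 on the plus strand, and reads of the copies cannot be told apart.

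The 6 libraries held 311049 to 1010185 miRNA counts, and 562 to 730 miRNAs had at least 1 count. The 10 most abundant miRNAs took 51.0% to 56.9% of the counts. Levels are given as CPM scaled by TMM (counts over the scaled library total), a share of the miRNA counts of a library, so that fewer cells with an miRNA and less of it per cell cannot be told apart. A count of 3 was worth 3.21 to 9.66 CPM, a floor that covers counting error only, while the 95% intervals of log2 fold changes below come from the edgeR fit and include the spread between cultures. Summed levels of the fibroblast markers miR-199a, miR-214, miR-143 and miR-145 (5 of 5 detected) were 19906 to 28078 CPM. Of the miRNAs that mark blood cells 4 of 6 were detected, with summed levels of 282 to 611 CPM, nearly all miR-486-5p, and miR-150-5p and miR-142-5p at 0. The summed endothelial, epithelial, liver, neuronal and muscle markers stayed between 0 and 191 CPM in every library, with miR-429 and miR-206 at 0.

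Differences between replicates of a day lay within the range of those between libraries of different days. Over the 360 miRNAs the root mean square difference in log2 CPM was 0.66 between the D0 replicates, 0.53 between those of D1 and 0.63 between those of D2. It was 0.49 and 0.51 between D0 replicate 1 and the D1 libraries, and 0.55 and 0.59 between D0 replicate 1 and the D2 libraries. D0 replicate 2 differed from the 4 D1 and D2 libraries by 0.60 to 0.76, and D2 replicate 2 differed from the other 5 libraries by 0.59 to 0.76. Of the miRNAs at 100 CPM or more on average, 8 of 192 differed over 2-fold between the D0 replicates, against 4 of 191 at D1 and 0 of 190 at D2. No replicate pair agreed within sampling noise. Leaving out D0 replicate 2 or any other of the 6 libraries also left 0 calls.

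**Figure D1:**
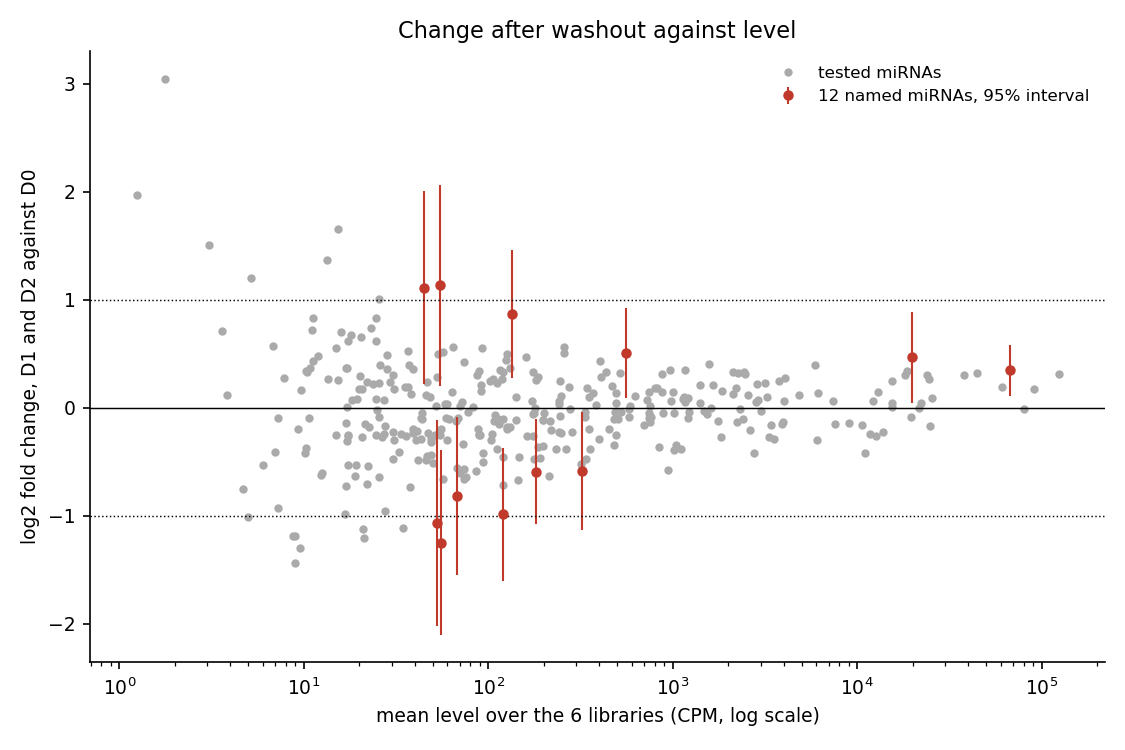
Log2 fold change of D1 and D2 against D0 (y axis) for the 360 tested miRNAs against their mean level over the 6 libraries in CPM on a log axis, with the 12 named miRNAs in red with 95% intervals and dotted lines at 2-fold. The spread narrows with level, and over 1000 CPM all 82 intervals lie within 2-fold.

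The precision was high for abundant miRNAs and low for rare ones. The 95% interval of the change from D0 lay within 2-fold for all 82 miRNAs over 1000 CPM, for 79 of 111 (71.2%) between 100 and 1000 CPM, and for 13 of 167 (7.78%) under 100 CPM. Over all 360, it lay within 2-fold for 174 (48.3%) and within 1.5-fold for 64. The median half-width of the interval was 0.39, 0.56 and 1.15 on the log2 scale in the 3 classes, against a median absolute log2 fold change of 0.16, 0.20 and 0.34. A 2-fold change between D0 and the days after washout was thus not detectable at this depth for most miRNAs under 100 CPM, while for the 82 over 1000 CPM such a change lay outside the interval.

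Among the 10 most abundant miRNAs, let-7a-5p, a repressor of RAS and HMGA2 messages, stood at 134723 and 78486 CPM at D0, 119887 and 134141 CPM at D1, and 128405 and 146927 CPM at D2. D0 replicate 1 lay within the range of the later libraries and D0 replicate 2 below it. miR-21-5p, a stress-responsive miRNA abundant in fibroblasts, ran from 66968 to 103148 CPM with the groups interleaved, and its log2 fold change was -0.01 with an interval of -0.61 to 0.59. miR-100-5p had 0.18 (-0.13 to 0.48), miR-222-3p 0.19 (-0.08 to 0.47), and miR-23a-3p 0.09 (-0.17 to 0.36) in log2 fold change. The widest of these intervals, that of miR-21-5p, stayed within 2-fold.

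**Figure D2:**
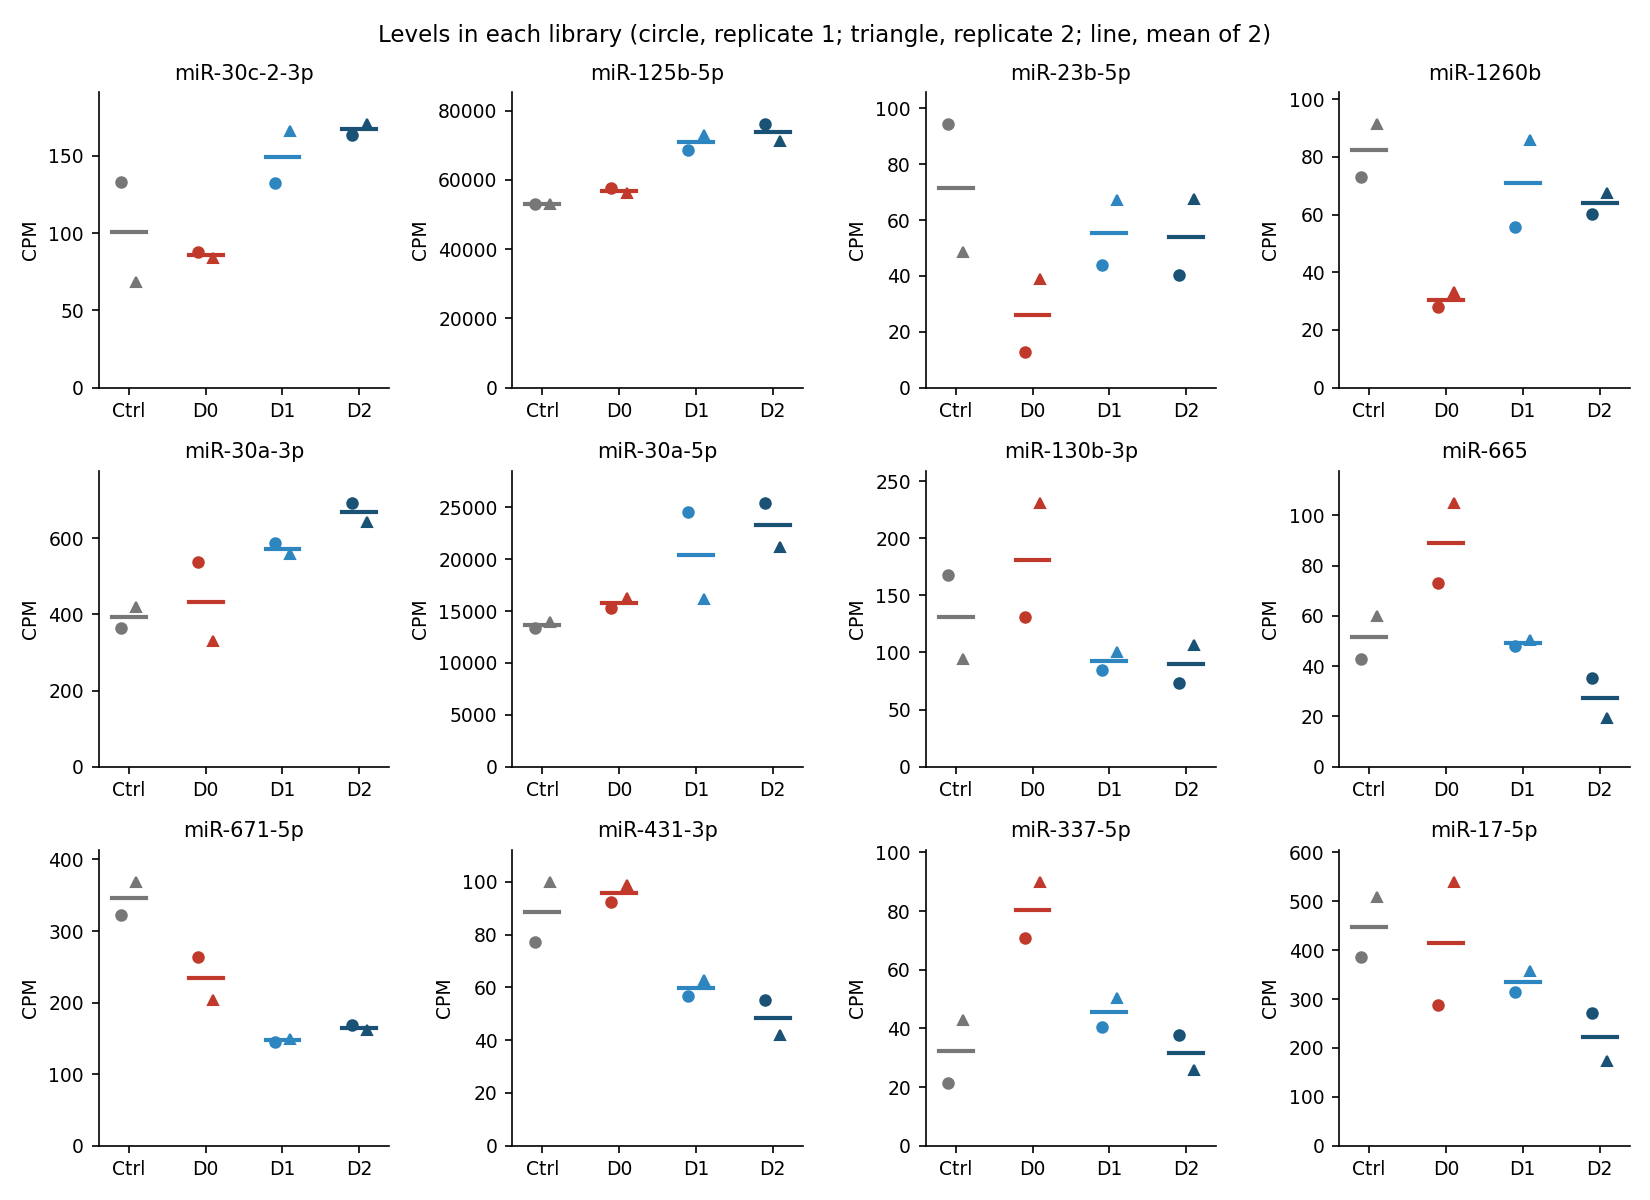
CPM (y axis, linear from 0) of the 12 named miRNAs in each library of Ctrl, D0, D1 and D2, with circles for replicate 1, triangles for replicate 2 and a line at the mean of 2. In 10 of 12 panels the D1 and D2 libraries all lie on one side of both D0 libraries, and miR-30a-5p and miR-17-5p overlap.

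A group of 3 miRNAs from the LINC00472 region were among the 6 higher miRNAs. miR-30c-2-3p, the less used arm of its hairpin and a known repressor of the unfolded protein response factor XBP1, was at 88.0 and 84.0 CPM at D0, 132 and 166 CPM at D1, and 163 and 171 CPM at D2. All 4 later libraries were above both D0 libraries, with a log2 fold change of 0.87 (SE 0.29, adjusted p = 0.542). In Ctrl its level was 133 and 68.6 CPM, a range that takes in both D0 libraries and D1 replicate 1.

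miR-30a-3p was at 537 and 330.1 CPM at D0, 588 and 558 CPM at D1, and 694 and 644 CPM at D2. The groups did not overlap, but the D0 replicates differed more from each other than D0 replicate 1 did from either D1 library, and the log2 fold change was 0.51 (SE 0.20, adjusted p = 0.742). miR-30a-5p, whose known targets include the autophagy gene BECN1, was at 15277 and 16282 CPM at D0, 24588 and 16203 CPM at D1, and 25457 and 21162 CPM at D2. D1 replicate 2 fell among the D0 libraries, and the log2 fold change was 0.47 (SE 0.21, adjusted p = 0.742). Of the other miR-30 guide strands, miR-30c-5p had a log2 fold change of 0.31 (SE 0.24) and miR-30d-5p one of -0.00 (SE 0.16).

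miR-125b-5p, one of the most abundant miRNAs of these cells, had the smallest SE of the 12, 0.12 on the log2 scale. It was at 57645 and 56169 CPM at D0, 68753 and 73024 CPM at D1, and 76261 and 71294 CPM at D2, and at 53046 and 52986 CPM in Ctrl. The 4 later libraries all lay above the D0 and the Ctrl libraries, with a log2 fold change from D0 of 0.35 (interval 0.11 to 0.58, adjusted p = 0.542). miR-125a-5p, of the same seed, was at 22268 and 20808 CPM at D0 and at 22707 to 28351 CPM afterwards, a log2 fold change of 0.27 (SE 0.16).

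The 2 remaining higher miRNAs had low counts. miR-23b-5p, the less used arm of a hairpin whose other arm is abundant, was at 12.9 and 39.0 CPM at D0 (6 and 13 counts), 43.8 and 67.1 CPM at D1, and 40.2 and 67.6 CPM at D2. The groups were separated by little more than the distance from 39.0 to 40.2 CPM, and the log2 fold change was 1.11 (SE 0.44, adjusted p = 0.742). miR-1260b was at 27.9 and 33.0 CPM at D0 (13 and 11 counts), 55.6 and 86.0 CPM at D1, and 60.3 and 67.6 CPM at D2, a log2 fold change of 1.13 (SE 0.46, adjusted p = 0.742). The Ctrl libraries, at 73.0 and 91.5 CPM, lay within and just above the range of the later libraries, and above both D0 libraries.

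On the lower side, miR-130b-3p had the smallest unadjusted p of all, 0.0027 by edgeR. Its level was 131 and 231 CPM at D0, 84.4 and 101 CPM at D1, and 72.9 and 106.3 CPM at D2. All 4 later libraries were below both D0 libraries, with a log2 fold change of -0.99 (SE 0.30, adjusted p = 0.542), and Ctrl was at 168 and 94.4 CPM. miR-454-3p, of the same seed, had a log2 fold change of 0.03 (SE 0.27).

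miR-671-5p, known to direct cleavage of the circular RNA CDR1as, was at 322 and 368.97 CPM in Ctrl, 264 and 204 CPM at D0, 145 and 149 CPM at D1, and 168 and 161 CPM at D2. Ctrl, D0 and the later libraries stood apart in that order, with D2 above D1. The log2 fold change from D0 was -0.59 (SE 0.24, adjusted p = 0.742). miR-17-5p, of the MYC-driven oncogenic cluster, was at 288 and 540.1 CPM at D0, 314 and 357 CPM at D1, and 271 and 174 CPM at D2. D0 replicate 1 lay among the D1 and D2 libraries, and the log2 fold change was -0.59 (SE 0.27, adjusted p = 0.742).

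The remaining 3 lower miRNAs were from the 14q32 cluster. miR-665 was at 73.0 and 105 CPM at D0, 48.1 and 50.4 CPM at D1, and 35.2 and 19.3 CPM at D2, a log2 fold change of -1.25 (SE 0.42, adjusted p = 0.542). miR-431-3p was at 92.3 and 99.0 CPM at D0, 56.6 and 62.9 CPM at D1, and 55.3 and 41.9 CPM at D2, a log2 fold change of -0.82 (SE 0.36, adjusted p = 0.742). miR-337-5p was at 70.8 and 90.0 CPM at D0, 40.6 and 50.4 CPM at D1, and 37.7 and 25.8 CPM at D2, a log2 fold change of -1.07 (SE 0.47, adjusted p = 0.742). These 3 miRNAs had 6 to 53 counts in each library after washout, and D2 against D1 gave 0 calls over all tested miRNAs.

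The cluster as a whole lay near the other miRNAs. Of 67 tested 14q32 miRNAs (of 88 in the table), 37 had a positive and 30 a negative log2 fold change, with a median of 0.06 against -0.03 over all 360, 1 (miR-485-3p, 0.41, SE 0.18) higher and 3 lower at an unadjusted p below 0.05 (4.72% over all 360), and 0 called. The median was -0.07 when libraries were scaled by total counts, where the median of all 360 was -0.16, and -0.05 without D0 replicate 2. Its most abundant members were miR-409-3p at 0.06 (SE 0.17), miR-493-5p at 0.39 (SE 0.23), miR-379-5p at -0.13 (SE 0.20) and miR-494-3p at -0.15 (SE 0.16) in log2 fold change. The summed CPM of the cluster was 66883 and 61252 at D0 and 63417 to 71428 afterwards. The arms of miR-337 had log2 fold changes of opposite sign. The count of miR-337-3p over that of miR-337-5p was 3.33 and 1.8 at D0, 4.95 and 6.04 at D1, and 7.80 and 13.9 at D2, with 4.6 and 3.4 in Ctrl. This ratio was chosen after its values were seen and has no test, and it rests on 8 to 38 counts of miR-337-5p at D0 to D2.

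Of the 12 named miRNAs, 10 had all later libraries on one side of both D0 libraries. Over all tested miRNAs this held for 26 upwards (7.22%) and 24 downwards (6.67%), so that such a separation was common in these 6 libraries.

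Levels in Ctrl show whether a difference ran back towards untreated cells. Between D0 and Ctrl 0 of 360 were called and 34 (9.44%) had an unadjusted p below 0.05 by edgeR. The mean of D1 and D2 against Ctrl gave 6 calls (1.67%), 3 higher and 3 lower. The number was 13 with DESeq2, 14 with total counts, 45 in a fit of only the conditions compared and 1 with a minimum mean of 10 counts. These were miR-125b-5p (log2 fold change 0.45, adjusted p = 0.0460), miR-10a-5p (0.59, adjusted p = 0.0460) and miR-337-3p (1.20, adjusted p = 0.0320) as higher and miR-671-5p (-1.15, adjusted p = 0.0116), miR-940 (-2.18, adjusted p = 0.0320) and miR-887-3p (-2.01, adjusted p = 0.0460) as lower. For all 6 the D0 estimate lay on the same side of Ctrl, at 0.10, 0.27, 0.69, -0.56, -1.19 and -1.39 in the same order. miR-940 and miR-887-3p had 3 to 12 counts in each D1 and D2 library. None of the 6 calls held on leaving out each of the 6 libraries in turn: miR-671-5p kept its call in 3 of 6, miR-337-3p in 2, miR-940 in 1 and the others in 0, and the number of calls was 0 without Ctrl replicate 1 or D2 replicate 2 and 1 or 2 without any other.

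Among the 12 named miRNAs, D1 and D2 were nearer to Ctrl than D0 for 3 (miR-23b-5p, miR-1260b and miR-337-5p), farther on the same side for 5 (miR-125b-5p, both miR-30a arms, miR-671-5p and miR-17-5p) and on the other side of Ctrl for 4 (miR-30c-2-3p, miR-130b-3p, miR-665 and miR-431-3p). Since D0 enters the choice of the 12 and both differences, these counts are a description with no test. For miR-1260b the log2 difference from Ctrl was -1.45 at D0 and -0.32 after washout, and for miR-337-5p it was 1.25 and 0.18. The Ctrl level of miR-337-5p rests on only 5 and 15 counts.

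Taken by day, D1 against D0 gave 0 calls with edgeR and with DESeq2 and 9 (2.5%) at an unadjusted p below 0.05, and D2 against D0 gave 0 calls with both and 19 (5.28%) at an unadjusted p below 0.05, 22 by DESeq2. D2 against D1 gave 0 calls with both and 7 (1.94%) at an unadjusted p below 0.05. miR-30c-2-3p (0.78 at D1 and 0.95 at D2), miR-125b-5p (0.32 and 0.37) and miR-130b-3p (-0.96 and -1.01) had nearly the same log2 fold change on both days. For miR-665 it was -0.84 and -1.66, and for miR-17-5p -0.30 and -0.88. The difference between the days was not called for any of them.

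**Figure D3:**
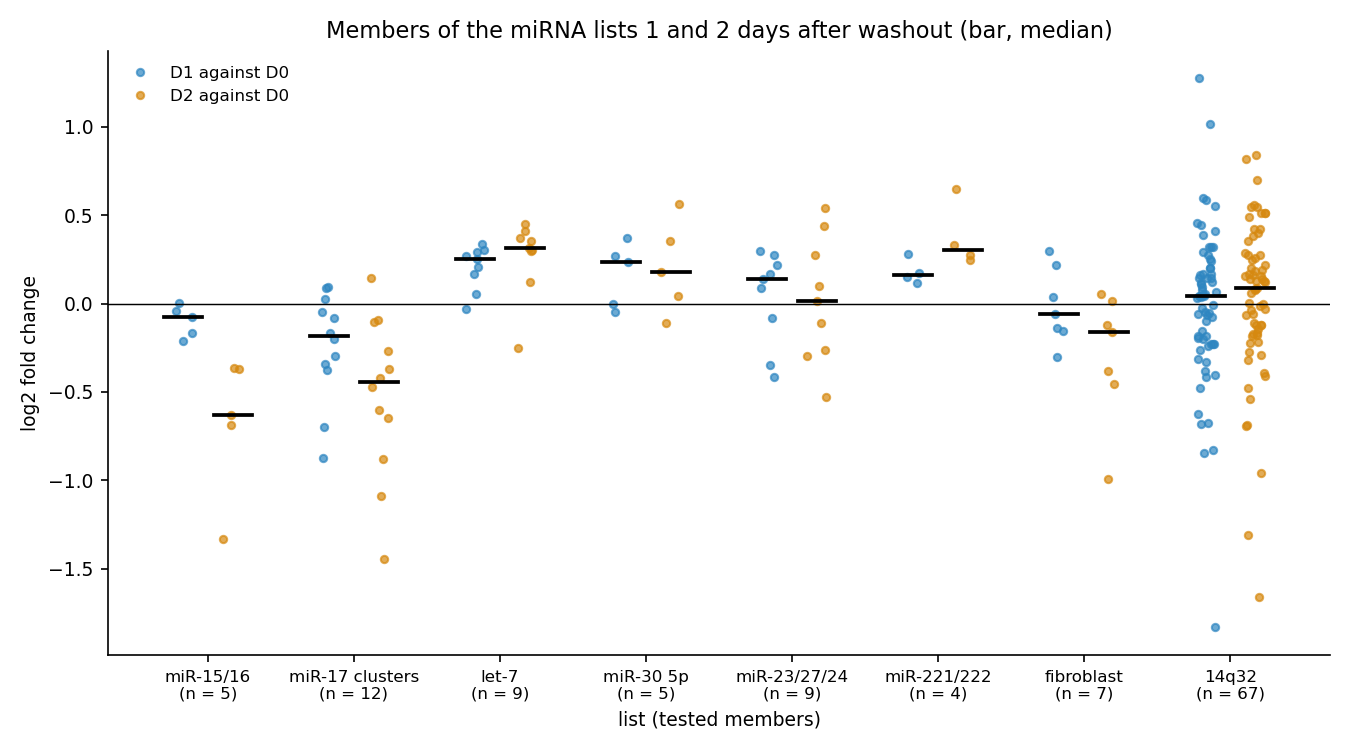
Log2 fold change from D0 (y axis) of the tested members of 8 miRNA lists at D1 (blue) and D2 (orange), each point 1 miRNA and each bar the median. The 5 miR-15/16 members have a median of -0.08 at D1 and -0.63 at D2, and the 9 let-7 members one of 0.25 and 0.31, with 0 called on either day.

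The miR-15/16 family represses cyclin D1 and BCL2 messages. Over D1 and D2 together all 5 tested members had negative log2 fold changes from D0, with a median of -0.36 and 0 at an unadjusted p below 0.05, and without D0 replicate 2 the median was -0.16 with 2 of 5 positive. The 5 (of 7 in the table) were also negative at D2 alone, with a median of -0.63 against -0.00 over all 360 miRNAs, and 3 had an unadjusted p below 0.05 (5.28% over all 360). At D1 the median was -0.08 and 0 had one (2.5% over all 360). D2 against D1 called 0 of the 5 by edgeR, each with an adjusted p of 0.997. In that comparison miR-15a-5p (-1.33) and miR-15b-5p (-0.64) had an unadjusted p below 0.05 (1.94% over all 360). miR-16-5p was at 2737 and 3841 CPM at D0, 2860.2 and 2818 CPM at D1, and 2425 and 1813 CPM at D2, a log2 fold change at D2 of -0.63 (SE 0.25, adjusted p = 0.692). miR-15b-5p was at 757.6 and 1200.3 CPM at D0, 751 and 1149.9 CPM at D1, and 643 and 570.1 CPM at D2. At D2 against D0, 0 of the 5 members were called. The also abundant miR-503-5p and miR-424-5p had log2 fold changes at D2 of -0.37 (SE 0.19) and -0.36 (SE 0.42), neither with an unadjusted p below 0.05. Without D0 replicate 2 the median at D2 was -0.40, again with 5 of 5 negative.

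The miR-17 family clusters, proliferation-linked miRNAs under MYC and E2F, had 12 of 12 tested members (of 17) with a negative log2 fold change after washout, a median of -0.33 against -0.03 over all 360, and 1, miR-17-5p, with an unadjusted p below 0.05 (4.72% over all 360). The median was -0.18 at D1 and -0.45 at D2. The abundant miR-92a-3p (-0.09, SE 0.19) and miR-25-3p (-0.09, SE 0.21) had small values, and miR-93-5p was at 4005 and 3493 CPM at D0 and at 2806 to 3469 CPM afterwards (-0.27, SE 0.14). Without D0 replicate 2 the median was -0.17, with 10 of 12 negative, and without D1 replicate 1 it was -0.39, with 9 of 12 negative. None of the 12 was called. Members of a cluster, here and in the other lists, are cut from shared transcripts and are not independent.

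The let-7 guide strands had positive log2 fold changes in 8 of 9 members, with a median of 0.30, and 0 were called. Their summed level was 242109 and 150683 CPM at D0 and 220017 to 257669 CPM afterwards, with 207213 and 157065 CPM in Ctrl. The D0 replicate 1 sum lay within the later range. Without D0 replicate 2, 2 of 9 members were positive and the median was -0.03. Without D0 replicate 1, 8 of 9 were positive with a median of 0.60, so that the direction of let-7 rested on which D0 library was used.

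The miR-221 family, repressors of the cell cycle inhibitor CDKN1B, had 4 of 4 tested arms with positive values and a median of 0.26, with 1 at an unadjusted p below 0.05 (4.72% over all 360). miR-221-3p was at 19560 and 24836 CPM in Ctrl, 16308 and 15067 CPM at D0, 20106 and 17978 CPM at D1, and 21062 and 18334 CPM at D2, a log2 fold change from D0 of 0.30 (SE 0.14, adjusted p = 0.742). The later libraries lay above D0, and 2 of the 4 lay below the lower Ctrl library.

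Of 5 further lists, which do not include every list computed, 0 members were called, and the median over all 360 miRNAs was -0.03. The NF-kB-linked miRNAs (4 of 5 tested) had 1 positive and 3 negative values and a median of -0.16, with miR-155-5p at -0.30 (SE 0.22) and miR-146b-5p at 0.35 (SE 0.25). The miR-23, miR-24 and miR-27 arms (9 of 9) had 5 positive and 4 negative values and a median of 0.09, miR-30 guide strands (5 of 5) 3 and 2 with 0.21, miR-29 (3 of 3) 2 and 1 with 0.00, and the fibroblast list (7 of 7) 2 and 5 with -0.16, including miR-143-3p (-0.26, SE 0.32) and miR-145-5p (-0.38, SE 0.20). The hypoxia marker miR-210-3p had 6 and 4 counts at D0, 12 and 6 at D1, and 0 and 1 at D2, too few for a fold change.

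The change from D0 was set against that of PMD-Sen cells over the same days, as the difference between the 2 log2 fold changes. This test called 1 of 360 miRNAs (0.278%), miR-1260b, and 27 (7.5%) had an unadjusted p below 0.05. miR-1260b went from 27.9 and 33.0 CPM at D0 to 55.6 to 86.0 CPM in DDR-Sen, and from 312 and 267 CPM at D0 to 57.6 to 177 CPM in PMD-Sen. The difference was 2.79 on the log2 scale (SE 0.61, adjusted p = 0.0283). The PMD-Sen D0 values rest on 34 and 24 counts in the shallowest libraries of the series, with 104439 and 81668 counts in all, and the call was lost in a fit of only the conditions compared (adjusted p = 0.164) and on leaving out each of 9 of the 12 libraries in turn. Mature miR-1260b matches miR-1260a at 17 of 18 positions (A9U counted from the 5′ end, miR-1260b first), and miR-1260a had at most 3 counts in any library.

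miR-7-5p, a repressor of EGFR signalling messages, came next. It was at 1251 and 1176 CPM at D0, 1111 and 634 CPM at D1, and 855 and 653.9 CPM at D2 in DDR-Sen, and at 395 and 346 CPM at D0 and 497 to 1337 CPM afterwards in PMD-Sen. The DDR-Sen libraries were lower and the PMD-Sen libraries higher after washout, a difference of -1.94 (SE 0.49, adjusted p = 0.0755). It passed the threshold with no filter on low counts (adjusted p = 0.000490), with a replicate block (adjusted p = 0.0414) and with total counts. It did not pass with DESeq2, with DESeq2's size factors, with a mean of at least 10 counts or with only the conditions compared. On leaving out single libraries it passed in some fits but not in most. miR-337-5p (-2.77, SE 0.85), miR-126-3p (-1.96, SE 0.63) and miR-221-3p (0.60, SE 0.19) followed, each with an adjusted p of 0.302.

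**Figure D4:**
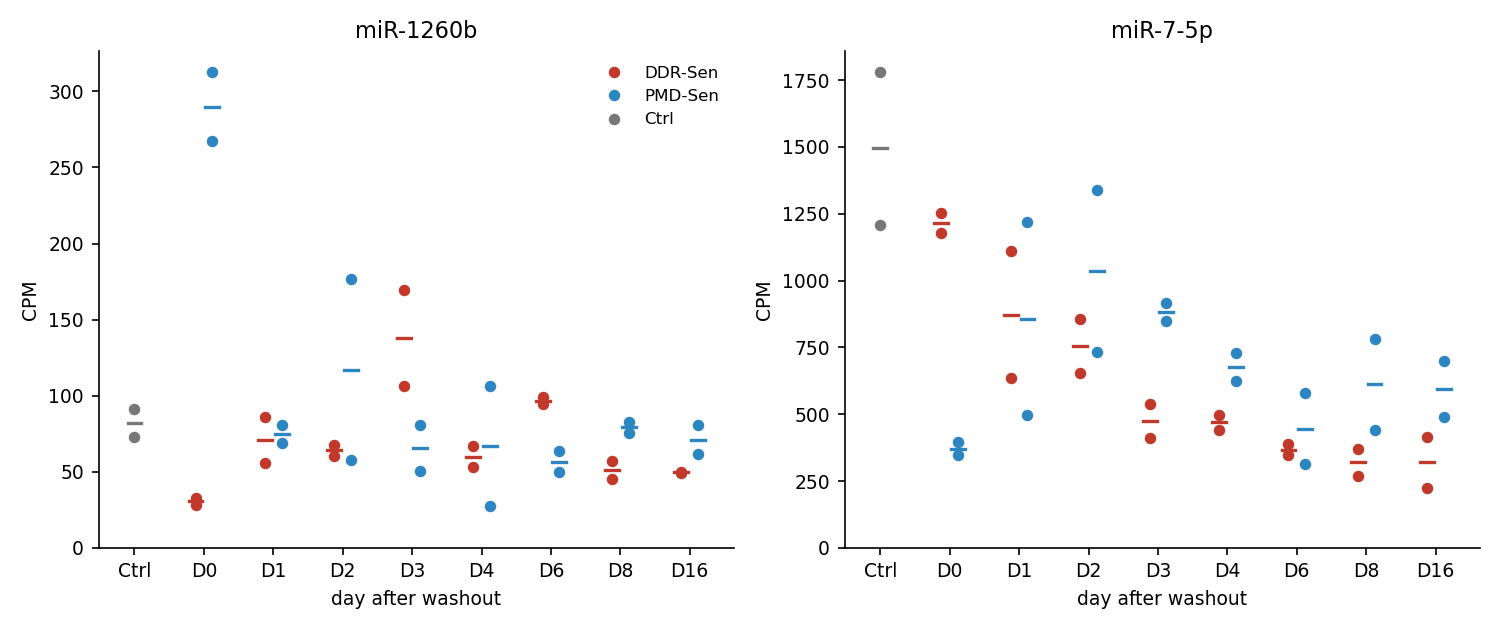
CPM (y axis, linear from 0) of miR-1260b and miR-7-5p in Ctrl and at each day after washout in DDR-Sen (red) and PMD-Sen (blue), each point 1 library and each bar the mean of 2. At D0 the treatments lie apart, with miR-1260b at 27.9 and 33.0 CPM in DDR-Sen and 312 and 267 CPM in PMD-Sen.

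Later days of the same DXR series, compared with the same D0 libraries after the earlier results were seen, gave calls from D3 on. edgeR called 12 miRNAs (3.33%) at D3, 34 (9.44%) at D4, 32 (8.89%) at D6, 32 (8.89%) at D8 and 58 (16.1%) at D16. Without D0 replicate 2 these counts were 1, 1, 3, 11 and 27, and without either library of the later day they were at most 2, 5, 6, 16 and 38, so that up to D6 few calls stood without any one of 3 libraries. Without D0 replicate 1 they were 10, 33, 31, 41 and 38.

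**Figure D5:**
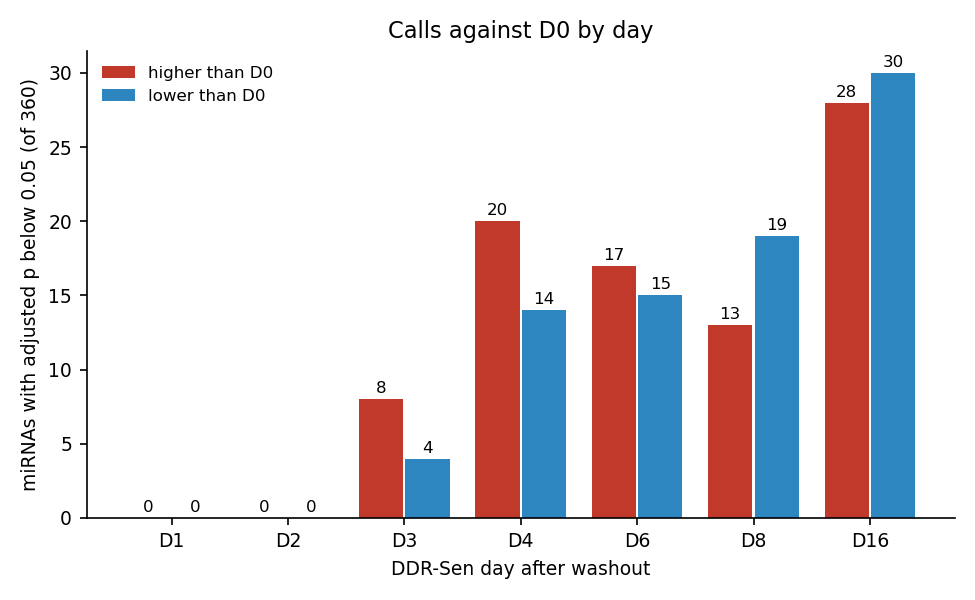
Number of miRNAs, of 360, higher (red) or lower (blue) than D0 at an adjusted p below 0.05 (y axis) on each DDR-Sen day (x axis), each day fitted against the same 2 D0 libraries. D1 and D2 have 0, D3 has 8 higher and 4 lower, and D16 has 28 higher and 30 lower.

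Of all 360 miRNAs, 81 (22.5%) were called on at least 1 of these later days, and of the 12 named miRNAs 6 were. The 12 were chosen by their difference from the same 2 D0 libraries, so that their count and their direction on later days are no independent result. miR-17-5p had log2 fold changes of -1.04 (adjusted p = 0.0428) at D4, -1.16 (0.0236) at D6, -1.70 (0.00103) at D8 and -2.23 (3.27e-05) at D16, and only the D16 call was kept on leaving out each library in turn. miR-130b-3p had -1.35 (adjusted p = 0.0493) at D3, -1.17 (0.0448) at D4, -1.50 (0.00803) at D8 and -1.91 (0.000689) at D16, again with only the D16 call kept each time. miR-1260b was called at D3 (2.16, adjusted p = 0.0119) and D6 (1.66, 0.0375), miR-30a-3p at D6 (0.74, 0.0418) and D16 (0.77, 0.0208), miR-125b-5p at D3 (0.48, 0.0374) and miR-30a-5p at D16 (0.80, 0.0162). Each of these 6 calls was lost on leaving out D0 replicate 2. miR-665, miR-431-3p, miR-337-5p, miR-671-5p, miR-23b-5p and miR-30c-2-3p were called on none of these days.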

How the data were processed

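Small RNA libraries of WI-38 cells were made by the authors with the NEXTFLEX Small RNA-Seq kit from total RNA and sequenced on a MiSeq. The deposited values are the authors' expected counts of mature miRNAs (1508 rows, 36 libraries), made with the exceRpt pipeline on GRCh38 and miRBase, of which the version is not given in the sources used here. Of 54288 values 1003 were not whole, and counts were rounded to whole numbers for the tests. The 18 rows that join several miRNA names were kept as they stand. Totals were 311049 to 1010185 in the 6 libraries compared.

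All 36 libraries entered 1 edgeR fit (4.0.16, R 4.3.3; TMM, filterByExpr on 18 conditions, 1 coefficient a condition, 18 residual degrees of freedom), which kept 360 miRNAs. Calls were made at a Benjamini-Hochberg adjusted p below 0.05. SE is the absolute log2 fold change over the square root of F, and 95% intervals use the t distribution. The study's methods used DESeq2 (here 1.42.0) with an unadjusted p below 0.05 and a log2 fold change above 1, given as alternatives. Here the study's thresholds were applied to the edgeR p-values, and DESeq2 was used with adjusted p-values for calls. The miRNAs and lists were chosen with earlier results of these data known. Named were the 6 miRNAs in each direction with the smallest p, as none was called, the 5 with the smallest p between treatments, the 10 most abundant and the most abundant members of each list. The comparisons with D3 to D16, D1 and D2 against Ctrl, and the lists under other scalings were added after seeing the data. The code was tested on simulated counts. Some lists that were computed are not reported here.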

Additional observations from a re-analysis of the deposited data

Results flagged for a closer look

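miR-1260b was the 1 result for which the change from D0 to D1 and D2 differed between the treatments by a test of the difference itself. The log2 difference, DDR-Sen minus PMD-Sen, was 2.79 (SE 0.61, adjusted p = 0.0283 by edgeR). DESeq2 gave 2.79 (adjusted p = 0.0436). The call was lost in the fit of only the conditions compared (2.83, adjusted p = 0.164) and on leaving out each of 9 of the 12 libraries. The PMD-Sen D0 libraries, at 312 and 267 CPM from 34 and 24 counts, and the DDR-Sen D0 libraries, at 27.9 and 33.0 CPM from 13 and 11 counts, were farthest apart at D0. The part of library depth in this difference was not tested.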

How the results depend on the processing

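The comparisons of D1 and D2 with D0, of each day with D0 and of D2 with D1 gave 0 calls under DESeq2, either other scaling, either other filter, the fit of only the conditions compared, the replicate block and each left-out library. With the study's thresholds on the edgeR p-values they gave 2 higher and 4 lower (pooled), 3 (D1), 7 (D2) and 6 (D2 against D1). Scaling by total counts gave 4 higher and 28 lower at an unadjusted p below 0.05, against 9 and 8 with TMM, with the median of all miRNAs at -0.16 instead of -0.03. The difference from PMD-Sen gave 1 call, 2 without a filter, with the replicate block and with total counts, 0 with only the conditions compared, 16 with the study's thresholds, and 0 to 2 on leaving out each library. Calls against D0 fell without a filter to 6 at D3, 15 at D4, 15 at D6 and 21 at D8, and with only the conditions compared to 3 at D3. D1 and D2 against Ctrl gave 6 calls, 13 with DESeq2, 1 with a mean of at least 10 counts, 45 with only the conditions compared, 23 with the study's thresholds and 14 with total counts. Leaving out each library gave 0 to 2 there, 0 to 10 at D3, 1 to 33 at D4, 3 to 31 at D6, 11 to 41 at D8 and 25 to 38 at D16. Leaving out a library also leaves a condition with 1 sample, which is assumed to vary like the others.

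Of 251 recomputed values of the named miRNAs, 235 kept direction and side of the threshold, 10, all of miR-1260b between treatments, lost the call, 6 passed it and 0 reversed. The 6 were of miR-7-5p between treatments (-1.94, adjusted p = 0.000490 without a filter, and -1.93, adjusted p = 0.0414 with the replicate block, among them). The miRNAs named for D1 and D2 against D0 were chosen by smallest p in the same libraries, and none was called. Their kept direction and side are therefore no independent check. Same-numbered replicates had correlations of deviations of 0.13, -0.12 and 0.17 over 360 miRNAs, so the numbers were not taken as pairs, and the replicate block changed no count other than 1 to 2 calls between treatments by more than 1.5 times.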
